A study of Mus musculus with 8 samples.

Results

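The cytochrome P450 family 4 enzymes of mouse liver were followed here through 10 genes, namely Cyp4a10, Cyp4a12a, Cyp4a12b, Cyp4a14, Cyp4a31, Cyp4a32, Cyp4f13, Cyp4f14, Cyp4f15 and Cyp4v3. They were taken by symbol from the 52636 Ensembl genes that were counted, 9 of them from subfamilies Cyp4a and Cyp4f and 1, Cyp4v3, from subfamily Cyp4v. All 10 of 10 passed the filter on low counts, in a test that covered 15248 genes. Livers came from male wild-type C57BL/6J mice that received an adeno-associated virus of serotype 8 at 7 weeks of age and a diet high in fat, cholesterol and fructose (the MASH diet) from 8 weeks of age for 24 weeks. In the 4 AAV8-GFP mice (numbers 303, 311, 314 and 315) the virus carried GFP, and in the 4 AAV8-AGXT mice (308, 309, 316 and 319) it carried human AGXT, an enzyme of peroxisomes that turns glyoxylate into glycine. Both transgenes were driven by the TBG promoter, which is active in hepatocytes, and both groups had the virus and the diet, so a liver without either was not analysed here. Each mouse gave 1 library of poly(A) RNA from bulk liver.

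Family 4 P450 enzymes sit in the membrane of the endoplasmic reticulum and add a hydroxyl group to the terminal (omega) carbon of a fatty acid. The product is oxidised further to a dicarboxylic acid, which is shortened in peroxisomes, a minor route of fatty acid breakdown that gains weight when mitochondrial oxidation is saturated or lipid is plentiful. Cyp4a enzymes act mainly on medium- and long-chain fatty acids, some of them on arachidonic acid, and several of their genes are classical targets of the nuclear receptor PPARα. Cyp4f enzymes act on leukotrienes, very long-chain fatty acids and the side chains of vitamins E and K, and Cyp4v3 is the mouse counterpart of the human gene that is mutated in Bietti crystalline dystrophy.

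The members fall into clusters in the genome and resemble each other in sequence, which bears on how reads can be assigned to them. On GRCm38 the 6 Cyp4a genes lie on chromosome 4, where Cyp4a12a (115299046 to 115332815, plus strand) is followed by Cyp4a12b (115411624 to 115439034, plus strand) and Cyp4a14 (115486200 to 115496142, minus strand). Cyp4a10 (115518264 to 115533649), Cyp4a31 (115563649 to 115579015) and Cyp4a32 (115600969 to 115621602) come next, all on the plus strand. The Cyp4f genes lie on chromosome 17, with Cyp4f15 at 32685627 to 32703352 on the plus strand, Cyp4f14 at 32905070 to 32917342 and Cyp4f13 at 32924688 to 32947402 on the minus strand. Cyp4v3 lies alone on chromosome 8 (45304944 to 45333216, minus strand), where its exons overlap those of Gm45753 on the same strand.

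The feature that all of the enzymes share is the cysteine that holds the heme iron. Its codon is shown in capitals within the 30 coding bases of the heme-binding motif, which a translation of the GENCODE coding sequences located once in each member. The stretch is the same in Cyp4a10, Cyp4a31 and Cyp4a32, and the same in Cyp4a12a and Cyp4a12b.
Cyp4a10: ttctcaggaggagccaggaacTGCattggg
Cyp4a12a: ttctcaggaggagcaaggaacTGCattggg
Cyp4a14: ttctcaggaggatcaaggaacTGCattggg
Cyp4f13: ttctcagcggggaccaggaacTGCatagga
Cyp4f14: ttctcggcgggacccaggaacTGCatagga
Cyp4f15: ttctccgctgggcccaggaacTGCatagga
Cyp4v3: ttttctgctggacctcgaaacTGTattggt
Within subfamily Cyp4a the motif differed by at most 2 of 30 bases between members, and among the 3 Cyp4f genes by 3 in each pair. An exon junction falls inside the motif in all 10 genes. Cyp4v3 was alone in coding the cysteine by TGT.

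Over the whole coding sequence the Cyp4a genes form a near-identical pair and a near-identical trio, while Cyp4a14 stands apart. Cyp4a12a and Cyp4a12b were identical at 98.5% of 1527 aligned bases. Cyp4a10 was identical to Cyp4a32 at 97.2% and to Cyp4a31 at 96.6% of 1530 bases. Cyp4a14 matched Cyp4a10 at 76.1%, and the closest Cyp4f pair, Cyp4f14 and Cyp4f15, matched at 82.2%. The stretches below, as long as a trimmed read (67 bases), are those in which the trio and the pair differ most, with each differing position in capitals. They are examples of positions that can tell these genes apart, and differing positions elsewhere can do so too. A capital in the trio marks a position at which at least 1 gene differs. The trio covers coding bases 195 to 261, with 10 such positions.
Cyp4a10: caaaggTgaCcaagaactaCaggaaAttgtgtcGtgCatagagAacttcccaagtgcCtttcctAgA
Cyp4a31: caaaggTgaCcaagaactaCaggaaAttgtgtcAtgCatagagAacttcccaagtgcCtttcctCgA
Cyp4a32: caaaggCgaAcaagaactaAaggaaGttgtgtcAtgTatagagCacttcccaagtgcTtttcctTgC
The pair covers coding bases 743 to 809, with 5.
Cyp4a12a: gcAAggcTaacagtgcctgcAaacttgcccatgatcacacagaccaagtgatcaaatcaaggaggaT
Cyp4a12b: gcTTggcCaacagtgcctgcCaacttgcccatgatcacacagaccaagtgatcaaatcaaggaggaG
In all, 77 coding positions differed within the trio and 23 within the pair, and 48.0% of the 67-base coding stretches of the pair held none.

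Over the annotated transcripts, 40.6% of the 76-base windows of Cyp4a12a were also present in another gene, as were 41.1% of those of Cyp4a12b, in both cases in the other of the pair. The share was 27.5% for Cyp4a32, 18.1% for Cyp4a10, 12.5% for Cyp4a31 and 6.38% for Cyp4v3, where Gm45753 was the partner. No window of Cyp4a14 was shared, and the Cyp4f genes shared at most 0.129%. With windows of 67 bases, the length of a trimmed read, the shares were higher, at 42.7% for Cyp4a12a and 43.2% for Cyp4a12b. They were then 32.45% for Cyp4a32, 21.6% for Cyp4a10, 15% for Cyp4a31 and 6.60% for Cyp4v3. The Cyp4f genes then shared at most 0.602%, and Cyp4a14 still none. A window stands for 1 read and not for a pair, and the share of a gene's read pairs that could not be placed was not measured. Read pairs that aligned to several places were not counted on any gene, which lowers the counts of genes with shared windows, and small differences between near-identical members are uncertain.

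Library depth and composition were checked before the members were compared. Counts on genes summed to 17095433 in the shallowest and 28780140 in the deepest library, and a difference in depth between the groups was not detected (two-sided exact permutation test, p = 0.171, smallest possible 0.0286). Levels are given as CPM, the read pairs of a gene per 1000000 counted, scaled by TMM, a composition factor per library. Within a group, libraries correlated at 0.959 to 0.983 on the log2 CPM scale. The library of AAV8-AGXT mouse 308 stood at one end, with 56.3% of tallied read pairs on genes against 62.4% to 69.1% in the other 7 mice and the lowest TMM factor (0.830 against 0.886 to 1.14). TMM factors did not overlap between the groups, at 1.02 to 1.14 in AAV8-GFP and 0.830 to 1.001 in AAV8-AGXT mice. The composition factor therefore goes with the treatment, and values depend on whether it is applied. The row of mouse Agxt stood at 164 ± 15.8 CPM under AAV8-GFP against 305 ± 98.3 CPM under AAV8-AGXT (SD, 4 mice each) without overlap (log2 fold change 0.90, edgeR adjusted p = 0.0489, passing in 3 of 9 other fits of all or most mice and in 1 of 8 that left out a mouse). The human transgene has no row of its own, and whether its reads reached the mouse row was not tested. The markers of hepatocytes were abundant in every library, with Alb at 29998 ± 4651 and 37995 ± 4545 CPM (SD, n = 4 each). Over all tested genes, 374 were higher and 290 lower at the threshold used below, and the median log2 fold change was 0.02.

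Of the 10 members, 2 were called higher in AAV8-AGXT livers and 0 lower by the edgeR quasi-likelihood test at an adjusted p under 0.05, a share to be read against the 4.35% of all tested genes that were called (2.45% higher and 1.9% lower). At an unadjusted p under 0.05, 6 members were higher and 0 lower, beside 13.5% and 12.6% of all tested genes. DESeq2 called 6 members higher and 0 lower, beside 6.29% and 6.11% of the 16752 genes to which it gave an adjusted p, and limma-voom called 4 and 0, beside 2.65% and 1.82%. All 10 log2 fold changes were above 0, with a median of 0.70, although Cyp4f13 and Cyp4f14 came below 0 when libraries were scaled by total counts alone. In 6 members the groups did not overlap and the AAV8-AGXT mice were the higher, in 0 the lower, while 8.93% of all tested genes were separated in the first and 7.63% in the second direction (16.6% in either). Counts of the 10 members together made up 0.192% to 0.408% of the counts on genes in AAV8-GFP mice and 0.517% to 0.978% in AAV8-AGXT mice, ranges that did not overlap. Most of this was Cyp4a10, Cyp4a14, Cyp4a31 and Cyp4a32, at 0.118% to 0.295% and 0.387% to 0.851%, also without overlap. The groups overlapped for Cyp4a12a with Cyp4a12b (0.0157% to 0.0582% and 0.0498% to 0.0650%). They also overlapped for the 3 Cyp4f genes (0.0314% to 0.0404% and 0.0375% to 0.0453%). In bulk liver, fewer cells of a type and less RNA per cell cannot be told apart, and this holds for every value given here. The 8 mice were separate animals, so the errors below are between animals.

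The pair that rose was Cyp4a10 and Cyp4a14, fatty acid omega-hydroxylases that are strongly induced by PPARα agonists. Cyp4a14 was counted at 1382, 673, 511 and 566 CPM in AAV8-GFP mice 303, 311, 314 and 315, and at 6514, 2101, 3436 and 2779.9 CPM in AAV8-AGXT mice 308, 309, 316 and 319. The lowest AAV8-AGXT mouse stood above the highest AAV8-GFP mouse, and mice 303 and 308 were the highest of their groups. The group means of 783 ± 405 and 3708 ± 1948 CPM (SD, 4 mice each) corresponded to a log2 fold change of 2.24 (standard error 0.42, edgeR adjusted p = 0.0335), or 4.74-fold. Cyp4a10 was counted at 1240.5, 633, 599 and 555 CPM in the AAV8-GFP mice and at 3589, 1782, 2078 and 1874 CPM in the AAV8-AGXT mice, in the same order. Again the groups did not overlap and mice 303 and 308 led. The group means of 757 ± 324 and 2331 ± 848 CPM (SD, 4 mice each) corresponded to a log2 fold change of 1.62 (standard error 0.32, edgeR adjusted p = 0.0349), or 3.08-fold.

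Both calls held in the 9 fits made with another tool, scaling, filter or without mice 303 and 308 together, and were lost in several fits that left out 1 mouse. Cyp4a14 passed in 5 of those 8 fits (log2 fold change 1.81 to 2.67, adjusted p up to 0.127 in edgeR) and Cyp4a10 in 4 of 8 (1.32 to 1.97, up to 0.135). Without mouse 311 only 2 genes in all passed, without mouse 314 15 and without mouse 319 14, and neither Cyp4a10 nor Cyp4a14 passed in those fits. Without mouse 308 Cyp4a14 passed (adjusted p = 0.0492 in edgeR) and Cyp4a10 did not (0.0586).

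**Figure D1:**
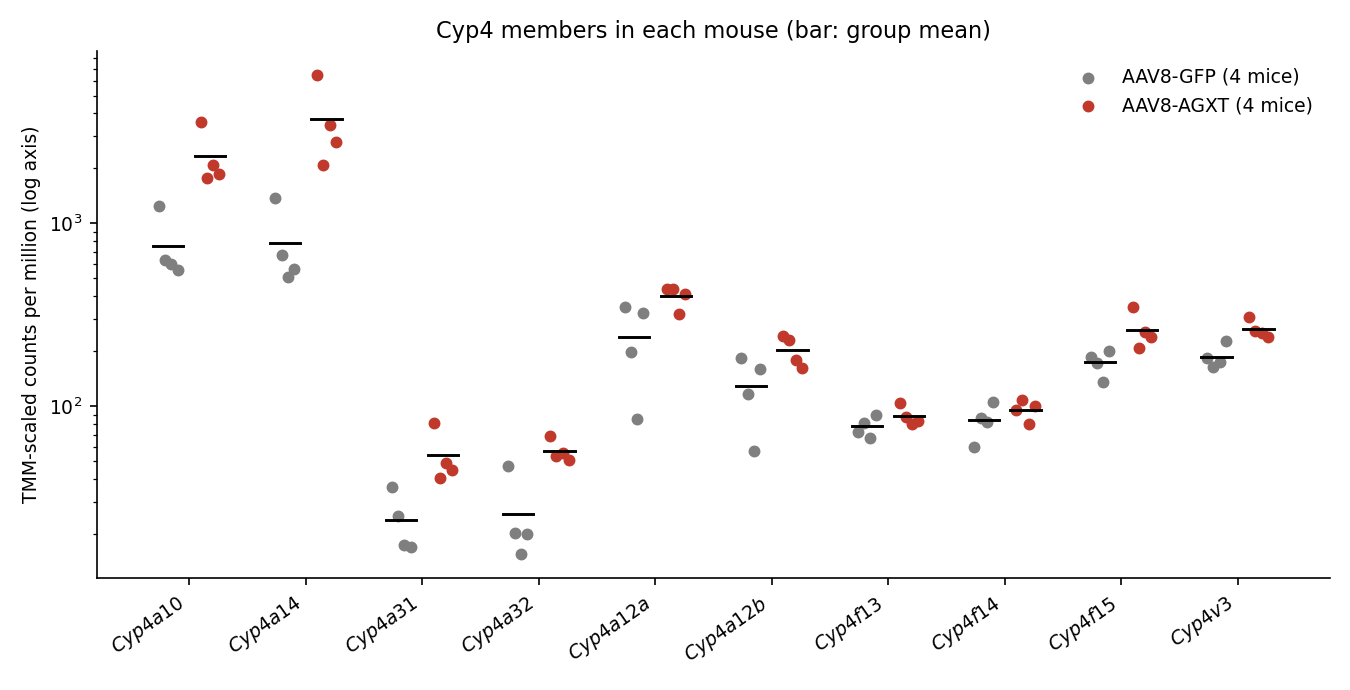
CPM scaled by TMM (log axis) of the 10 Cyp4 members in each of 4 AAV8-GFP mice (grey) and 4 AAV8-AGXT mice (red), with a bar at each group mean. Cyp4a14 spans 511 to 1382 CPM in grey and 2101 to 6514 CPM in red, while the points of Cyp4f13 and Cyp4f14 overlap between the groups.

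Cyp4a31 and Cyp4a32, the near-identical neighbours of Cyp4a10 whose enzymes are less well studied, lay much lower in level and pointed the same way without passing the test. Cyp4a31 was counted at 36.3, 25.2, 17.4 and 16.98 CPM in AAV8-GFP mice 303, 311, 314 and 315 and at 80.8, 40.5, 48.8 and 45.02 CPM in AAV8-AGXT mice 308, 309, 316 and 319. The groups did not overlap, and the log2 fold change was 1.16 (standard error 0.28, edgeR adjusted p = 0.0501). Cyp4a32 was counted at 47.1, 20.2, 15.5 and 19.98 CPM in AAV8-GFP mice and at 68.7, 53.7, 55.4 and 51.0 CPM in AAV8-AGXT mice. The groups did not overlap, but mouse 303 came close to the lowest AAV8-AGXT mouse, and the log2 fold change was 1.15 (standard error 0.31, edgeR adjusted p = 0.0641). DESeq2, limma-voom, the fit without a filter on low counts and the fit without mouse 303 called both of them, with adjusted p between 0.00252 and 0.0475 for Cyp4a31 and between 0.00618 and 0.0422 for Cyp4a32. Each passed in 4 of 9 other fits of all or most mice and in only 1 of 8 that left out a mouse. In the latter, edgeR adjusted p reached 0.158 for Cyp4a31 and 0.201 for Cyp4a32, both without mouse 311. The part of misassigned Cyp4a10 reads in these counts was not tested.

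Cyp4a12a, which makes omega-hydroxylated arachidonic acid and is expressed mainly in males, and its near copy Cyp4a12b varied widely among AAV8-GFP mice. Cyp4a12a was counted at 349, 197, 85.5 and 322 CPM in AAV8-GFP mice 303, 311, 314 and 315 and at 440.3, 437, 319 and 409.9 CPM in AAV8-AGXT mice 308, 309, 316 and 319. The groups overlapped, since mice 303 and 315 exceeded mouse 316, and mouse 314 was the lowest. The log2 fold change was 0.75 (standard error 0.36, edgeR adjusted p = 0.215). Cyp4a12b was counted at 185, 116, 57.2 and 159 CPM in AAV8-GFP mice and at 241, 231, 179 and 161 CPM in AAV8-AGXT mice, with a log2 fold change of 0.65 (standard error 0.31, edgeR adjusted p = 0.212). Among AAV8-GFP mice the order was that of Cyp4a12a, with mouse 314 again the lowest. The coefficient of variation of Cyp4a12a was 50.9% in AAV8-GFP and 14.1% in AAV8-AGXT mice, a difference in spread that was not tested.

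The Cyp4f genes and Cyp4v3 had smaller log2 fold changes, and none of them passed. Cyp4f15, which hydroxylates leukotriene B4 and other eicosanoids, was counted at 186, 173, 136 and 201 CPM in AAV8-GFP mice 303, 311, 314 and 315 and at 347, 209, 254 and 240.1 CPM in AAV8-AGXT mice 308, 309, 316 and 319. The groups were separated by a narrow gap, between mice 315 and 309, and the log2 fold change was 0.59 (standard error 0.18, edgeR adjusted p = 0.0814). Cyp4v3 was counted at 183, 164, 174 and 227 CPM in AAV8-GFP mice and at 306, 259, 252 and 239.7 CPM in AAV8-AGXT mice. These groups did not overlap either, and the log2 fold change was 0.50 (standard error 0.14, edgeR adjusted p = 0.0677). DESeq2 called both, at adjusted p = 0.0216 for Cyp4f15 and 0.00757 for Cyp4v3, and was the 1 of 9 other fits of all or most mice to do so. In limma-voom adjusted p was 0.0772 and 0.0575. Of the 8 fits that left out a mouse, Cyp4f15 passed in 0 and Cyp4v3 in 1.

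Cyp4f14, an omega-hydroxylase of leukotriene B4 and vitamin E, and Cyp4f13 overlapped between the groups. Cyp4f14 was counted at 59.7, 86.1, 82.4 and 106 CPM in the AAV8-GFP mice and at 94.9, 108, 79.6 and 100.8 CPM in the AAV8-AGXT mice, with a log2 fold change of 0.20 (standard error 0.17, edgeR adjusted p = 0.490). Mouse 303, the highest AAV8-GFP mouse for Cyp4a10, was the lowest for Cyp4f14. Cyp4f13 was counted at 72.3, 80.9, 67.3 and 89.4 CPM in the AAV8-GFP mice and at 104, 87.0, 79.6 and 83.0 CPM in the AAV8-AGXT mice, with a log2 fold change of 0.19 (standard error 0.13, edgeR adjusted p = 0.364). The sign of both depends on the scaling: with total counts and no composition factor, which moved the median over all genes to -0.22, Cyp4f13 came to -0.053 and Cyp4f14 to -0.036.

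**Figure D2:**
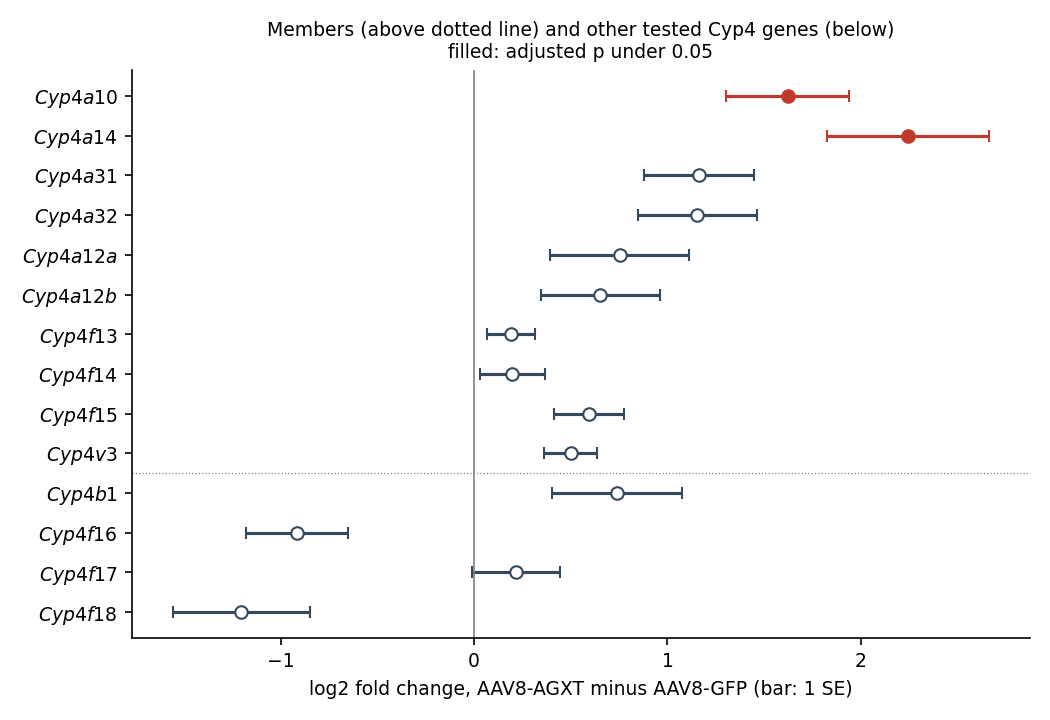
Log2 fold change (AAV8-AGXT minus AAV8-GFP, 4 mice each) with a bar of 1 standard error for the 10 members and, below the dotted line, the 4 other Cyp4 genes that were tested; filled points have an adjusted p under 0.05. Only Cyp4a10 at 1.62 and Cyp4a14 at 2.24 are filled, and Cyp4f16 and Cyp4f18 lie below 0.

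Levels per kilobase of exon allowed the members to be ranked within a group. In AAV8-GFP mice Cyp4a10 (359 ± 154 CPM per kilobase, SD, n = 4) and Cyp4a14 (301.01 ± 156) stood above all others, and their ranges over mice overlapped each other and no other member. Cyp4a12a (98.4 ± 50.1), Cyp4f15 (76.3 ± 12.1), Cyp4a12b (54.0 ± 23.2), Cyp4v3 (49.1 ± 7.21) and Cyp4f14 (34.5 ± 7.86) followed, with overlapping ranges of neighbours down to Cyp4f14. The range of Cyp4f14 was separate from that of Cyp4f13. Below them came Cyp4f13 (17.4 ± 2.20), Cyp4a32 (16.7 ± 9.41) and Cyp4a31 (9.56 ± 3.61), again with overlapping neighbours. In AAV8-AGXT mice Cyp4a14 (1425 ± 749 CPM per kilobase, SD, n = 4) was first and Cyp4a10 (1105 ± 402) came after it, with overlapping ranges, and Cyp4a12a followed at 166 ± 23.4. Ranges of neighbours in this order were separate between Cyp4a10 and Cyp4a12a, between Cyp4v3 (69.4 ± 7.65) and Cyp4f14 (39.6 ± 4.99), and between Cyp4a32 (37.2 ± 5.13) and Cyp4a31 (21.4 ± 7.30). Cyp4f13, at 19.9 ± 2.44 CPM per kilobase, was last. Counting as length only the windows found in no other gene, a choice made after the data were seen, changed this order. The windows were counted over all annotated transcripts, so a gene with many transcripts gains length. Cyp4f13 had 4972 windows of 76 bases from 14 transcripts, 3 of them shared, against 4441 bases of exon. Cyp4a12a came to 171 and 288 CPM per kilobase in AAV8-GFP and AAV8-AGXT mice and kept its place, while Cyp4a12b came to 94.5 and 149, above Cyp4f15 at 74.9 and 113. Cyp4a32 came to 22.4 and 49.9, above Cyp4f13 (15.6) in AAV8-GFP mice and above Cyp4f14 (38.9) in AAV8-AGXT mice. With the longest transcript as length, Cyp4f13 came to 44.2 and 50.5 CPM per kilobase, above Cyp4f14 at 37.6 and 43.2.

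Ratios within a mouse showed how far members differed in response, and 5 pairs were compared by two-sided exact permutation tests whose smallest possible p is 0.0286. The log2 ratio of Cyp4a14 to Cyp4a10 was 0.16, 0.09, -0.23 and 0.03 in AAV8-GFP mice 303, 311, 314 and 315 and 0.86, 0.24, 0.73 and 0.57 in AAV8-AGXT mice 308, 309, 316 and 319. Every AAV8-AGXT mouse was above every AAV8-GFP mouse, by 0.59 on average (exact permutation p = 0.0286, 0.0714 adjusted over the 5 ratios). The log2 ratio of Cyp4a10 to Cyp4v3 was likewise separated, at 1.95 ± 0.61 against 3.08 ± 0.33 (SD, n = 4 each, exact permutation p = 0.0286, adjusted 0.0714). For Cyp4a10 to Cyp4f14 the difference was 1.43 (exact permutation p = 0.0857, adjusted 0.143), with mouse 303 among the AAV8-AGXT mice at 4.38. Neither Cyp4a10 to Cyp4a12a (difference 0.71, exact permutation p = 0.171, adjusted 0.214) nor Cyp4a12a to Cyp4a12b (0.17, exact permutation p = 0.343, adjusted 0.343) passed. No ratio passed 0.05 after adjustment.

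**Figure D3:**
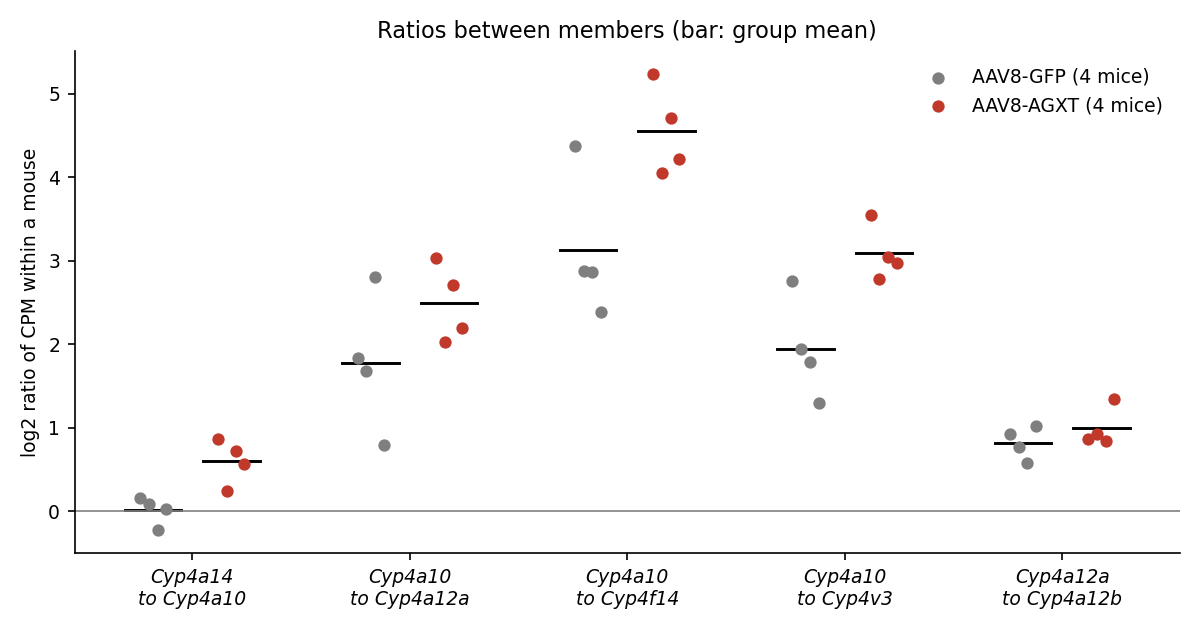
Log2 ratio between 2 members within each mouse, for 5 ratios, in AAV8-GFP (grey) and AAV8-AGXT mice (red), with a bar at each group mean. The groups are separate for Cyp4a14 to Cyp4a10 (means 0.01 and 0.60) and for Cyp4a10 to Cyp4v3 (means 1.95 and 3.08), and they overlap for the other 3 ratios.

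Variation among mice of the same group was shared by some members more than by others. After the group mean was removed from log2 CPM, Cyp4a10, Cyp4a14 and Cyp4a31 had Pearson correlations of 0.95 to 0.97 with each other over the 8 mice, and Cyp4a32 of 0.82 to 0.86 with them. Cyp4a12a and Cyp4a12b correlated at 0.95 with each other and at 0.38 to 0.51 with Cyp4a10, Cyp4a14 and Cyp4a31, but at 0.68 and 0.74 with Cyp4a32. Cyp4f13 correlated at 0.77 with Cyp4f15 and at 0.76 with Cyp4v3, but Cyp4f15 also correlated at 0.75 with Cyp4a14, at 0.61 with Cyp4a10 and at 0.60 and 0.64 with Cyp4a12a and Cyp4a12b. By contrast, Cyp4f14 had negative values with Cyp4a10 (-0.68) and Cyp4a32 (-0.69). Mice 303 and 308 were the highest of their groups for each of Cyp4a10, Cyp4a14, Cyp4a31 and Cyp4a32. They weigh heavily in these correlations, which were not computed without them. These are descriptions over 8 points that share library and scaling, and the part of misassigned reads of near-identical members in them was not tested.

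**Figure D4:**
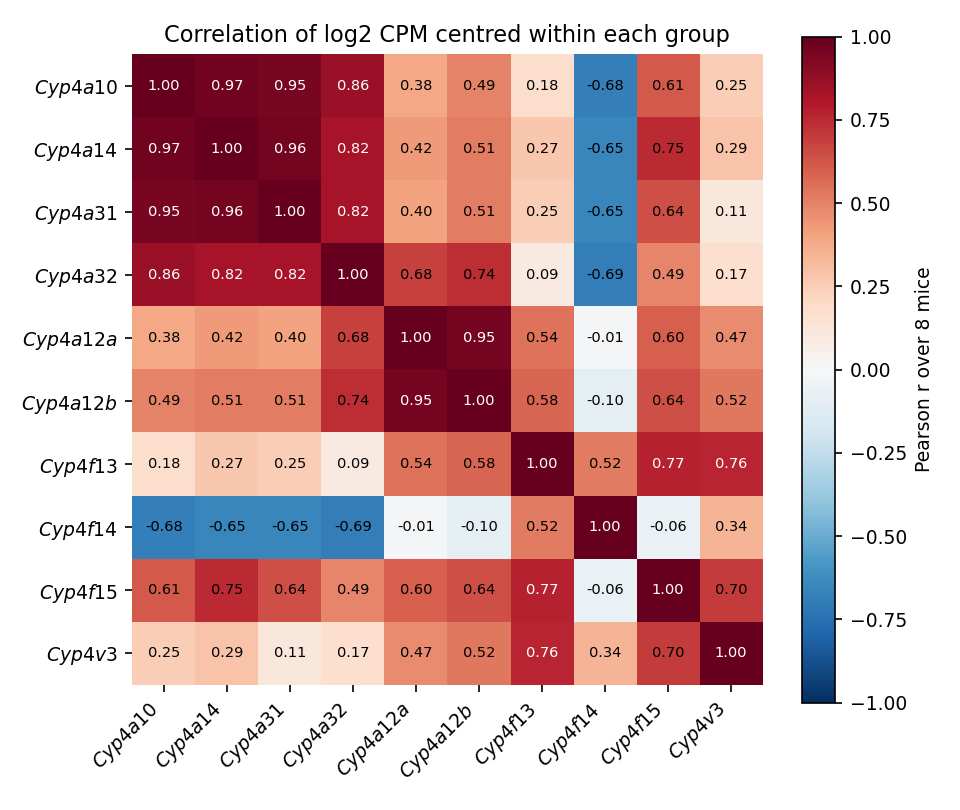
Pearson correlation of log2 CPM centred within each group, over 8 mice, between the 10 members, on a colour scale from -1 (blue) to 1 (red). Cyp4a10, Cyp4a14, Cyp4a31 and Cyp4a32 form a block of 0.82 to 0.97, Cyp4a12a and Cyp4a12b a pair at 0.95, and Cyp4f14 is negative with the first block (-0.65 to -0.69). Mice 303 and 308 are the highest of their groups for each gene of the first block.

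Outside the family, the tested genes that followed each member most closely over the 8 mice by the same measure had correlations of 0.96 to 0.99, as the extremes of 15248 genes. For Cyp4a14 they were Chd2, Tor3a and Pnpla2, for Cyp4a10 Ddhd2, Bcl2l12 and Gm27010, for Cyp4a31 Ppp4r1l-ps, Pdcd2l and Ctcfl, and for Cyp4a32 Csrp3, Gm16439 and Glrx. Pnpla2, the triglyceride lipase ATGL, was the 1 of these 12 that was itself called higher (log2 fold change 0.66, edgeR adjusted p = 0.0484). For Cyp4a12a they were Lrrc24, Mup6 and Mup-ps13, and for Cyp4a12b Mup-ps13, Izumo1 and Lyrm7, where Mup6 and Mup-ps13 belong to the major urinary protein cluster, which is expressed mainly in males. For the others they were Ces3a, Ring1 and Lipc (Cyp4f13), Gon7, Gin1 and Ankhd1 (Cyp4f14), Cend1, Elp5 and Sdhb (Cyp4f15) and Hdhd2, E2f6 and Fzd5 (Cyp4v3).

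The annotation holds 10 further protein-coding Cyp4 genes, of which 4 passed the filter and 0 were called by edgeR, with 2 lower at an unadjusted p under 0.05 and by DESeq2, and 0 by limma-voom. The pair was Cyp4f18, which degrades leukotriene B4 in neutrophils, and Cyp4f16. Cyp4f18 stood at 4.57, 7.68, 5.58 and 3.62 CPM in AAV8-GFP mice 303, 311, 314 and 315 and at 0.897, 2.82, 2.88 and 2.64 CPM in AAV8-AGXT mice 308, 309, 316 and 319, a log2 fold change of -1.20 (standard error 0.35, edgeR adjusted p = 0.0764) without overlap. Cyp4f16 was at 6.73 ± 1.67 and 3.54 ± 1.04 CPM (SD, n = 4 each), also without overlap (log2 fold change -0.92, edgeR adjusted p = 0.0728). Of the 9 tested markers of neutrophils and lymphocytes, 0 were called by edgeR (1 lower at an unadjusted p under 0.05 and by DESeq2, 0 by limma-voom), their median log2 fold change was -0.69, their summed level was 17.8 to 30.4 CPM in AAV8-GFP and 8.28 to 17.3 CPM in AAV8-AGXT mice, the neutrophil marker Ly6g had 0 to 3 counts per mouse, and their part in the values of Cyp4f18 was not tested. Cyp4b1, an enzyme of lung and other epithelia, had a log2 fold change of 0.74 (edgeR adjusted p = 0.195) and Cyp4f17 of 0.22 (0.581), a value that turned to -0.011 with total counts. Cyp4f39 had 1 to 8 counts per mouse, Cyp4x1 0 to 8 and Cyp4a30b 0 to 3, and Cyp4a29, Cyp4f37 and Cyp4f40 had 0 counts in all 8 mice.

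The steps that surround omega-hydroxylation were followed in lists. Electrons reach microsomal P450 enzymes from NADPH through P450 oxidoreductase, encoded by Por, and from cytochrome b5. Por was at 266, 232, 299 and 218 CPM in AAV8-GFP mice 303, 311, 314 and 315 and at 736, 419, 601 and 773 CPM in AAV8-AGXT mice 308, 309, 316 and 319. The groups were far apart, and Por was the 1 of 4 genes of electron supply that was called higher, with 0 lower (log2 fold change 1.32, standard error 0.20, edgeR adjusted p = 0.0246). The list's median log2 fold change was 0.20. Cyb5a (0.19, edgeR adjusted p = 0.410) and Cyb5b (0.22, 0.404) had values below 0 with total counts (-0.057 and -0.018), and Cyb5r3 was at -0.33 (0.184).

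Alcohol and aldehyde dehydrogenases carry the omega-hydroxy acid on to the dicarboxylate. Of 7 tested genes, 1 was called higher and 0 lower by edgeR, with a median of 0.36, and DESeq2 called 3 higher and 0 lower. The called gene was Aldh9a1, a cytosolic aldehyde dehydrogenase best known for making carnitine and betaine precursors, with a log2 fold change of 0.57 (edgeR adjusted p = 0.0436). Aldh3a2, the fatty aldehyde dehydrogenase, was at 0.42 (0.169), Aldh1a1 at 0.52 (0.0677), Adh5 at 0.34 (0.0921), Adh7 at 0.36 (0.329), Adh4 at 0.17 (0.456) and Adh1 at -0.10 (0.689), with edgeR adjusted p in brackets, and Adh4 was below 0 with total counts (-0.064).

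In peroxisomes the dicarboxylates are imported, activated and shortened. Of 14 tested genes, 3 were called higher and 0 lower, and the median was 0.66, beside 0.02 over all tested genes. Ehhadh, the bifunctional enzyme of peroxisomal beta-oxidation, was at 1169, 652, 561 and 712 CPM in AAV8-GFP mice 303, 311, 314 and 315 and at 3239, 1454, 1972 and 1683 CPM in AAV8-AGXT mice 308, 309, 316 and 319 (log2 fold change 1.43, edgeR adjusted p = 0.0376). As for Cyp4a10 and Cyp4a14, mice 303 and 308 were the highest of their groups. Abcd3, the importer of long-chain acyl groups, was at 0.76 (edgeR adjusted p = 0.0376). The others did not pass, among them Slc27a2, an acyl-CoA synthetase of peroxisomes, at 0.62 (edgeR adjusted p = 0.0516), the thioesterases Acot8 at 0.88 (0.0502), Acot4 at 1.02 (0.0732) and Acot3 at 1.45 (0.207), Scp2 at 0.58 (0.0610), Hsd17b4 at 0.51 (0.0619) and Acaa1a at 0.68 (0.0640). Crot, which hands the shortened chains to carnitine, was at 0.19 (0.384) and below 0 with total counts (-0.043), and Abcd2 was at -0.52 (0.298). DESeq2 called 9 of the 14 higher and limma-voom 5, and neither called any lower.

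Among 12 genes of PPARα and its partners, 2 were called higher and 0 lower by edgeR, with a median of 0.24. Ppara itself was at 44.7, 37.6, 49.5 and 41.3 CPM in the AAV8-GFP mice and at 95.9, 62.8, 59.4 and 102 CPM in the AAV8-AGXT mice, in the order of mice used above. The groups did not overlap (log2 fold change 0.89, edgeR adjusted p = 0.0376). Creb3l3, a liver transcription factor that acts with PPARα, was at 0.70 (0.0486), and Rxra, the partner receptor, was at 0.67 and did not pass (0.0502). Ppargc1b was at 1.15 (0.0610) and Ppard at -0.23 (0.218), and Rxrb (0.19), Ncor1 (0.23), Ncoa1 (0.02) and Rxrg (0.10) changed sign with total counts.

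Of 24 PPARα targets outside the family, 6 were called higher and 0 lower by edgeR, with a median of 0.52, and 1 was lower at an unadjusted p under 0.05. Slc22a5, the carnitine transporter, was at 1.17 (edgeR adjusted p = 0.0309), and Cpt1a at 0.73 (0.0374) and Acadm at 0.63 (0.0411) carry and oxidise fatty acids in mitochondria. Other known targets did not pass, with log2 fold changes of 1.81 for Acot1 (edgeR adjusted p = 0.0647), 0.64 for Vnn1 (0.0732), 0.25 for Angptl4 (0.304) and 0.26 for Plin2 (0.430). Pdk4 at -0.21 (0.822), Fgf21 at -0.40 (0.487) and Ucp2 at -0.65 (0.119) lay below 0, and Pdk4 came to 0.42 without mouse 303. The counts of 6 of 24 targets and 3 of 14 peroxisomal genes stand beside 2.45% called higher over all genes, and the lists overlap, since Ehhadh, Acot3, Aldh3a2 and Creb3l3 each belong to more than 1.

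These calls, like those of the members, were lost when some mice were left out. Of the 8 fits that left out 1 mouse, Por passed in 5, Slc22a5 in 4, Ehhadh, Abcd3, Ppara and Cpt1a in 2 each, and Aldh9a1, Creb3l3 and Acadm in 1 each. None of these 9 genes passed in the fits without mouse 311, 314 or 319, where edgeR adjusted p for Por was at most 0.115. Without mice 303 and 308 together, Ehhadh and Slc22a5 passed and Por did not (edgeR adjusted p = 0.0583).

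**Figure D5:**
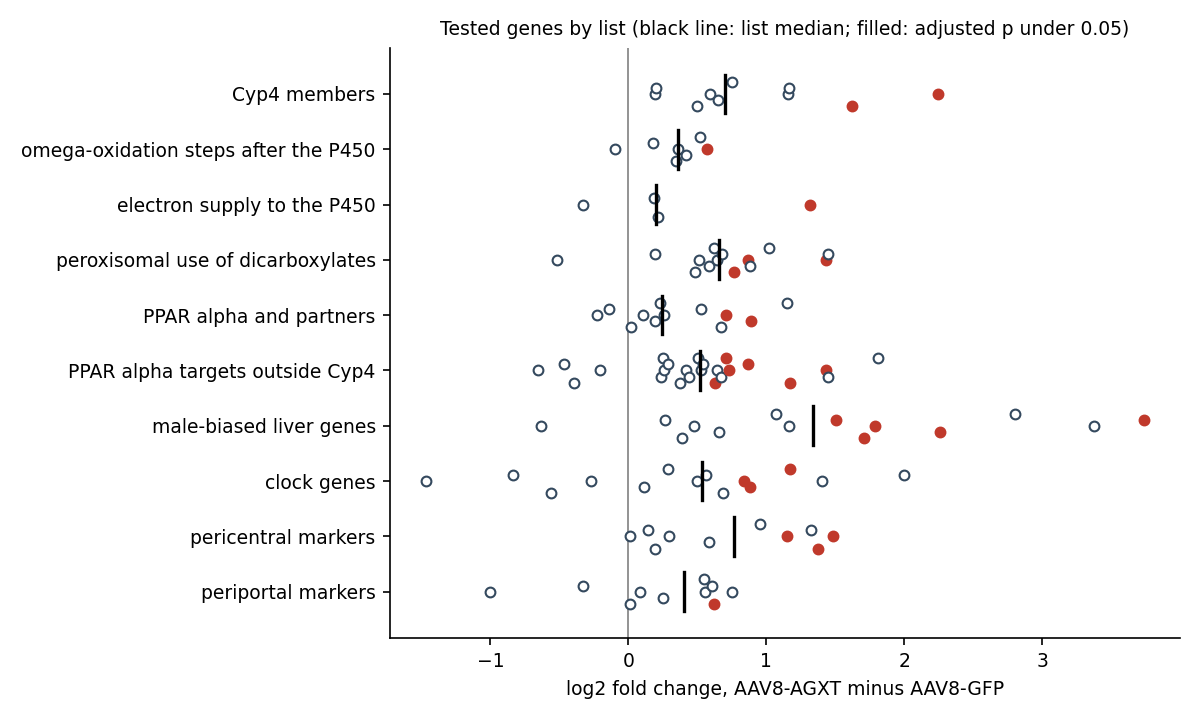
Log2 fold change (AAV8-AGXT minus AAV8-GFP) of each tested gene of 10 lists, with a black line at the list's median and filled points for an adjusted p under 0.05. The median of the Cyp4 members is 0.70, that of the peroxisomal list 0.66, that of the PPARα targets 0.52 and that of the male-biased genes 1.33.

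Genes of other lists were read beside the members, against the 2.45% of all tested genes called higher and the 1.9% called lower, and their part in the members' values was not tested. Of 14 male-biased liver genes, 5 were called higher and 0 lower by edgeR (median 1.33, with 13 above 0), among them Hsd3b5, a steroid dehydrogenase, at 3.73 (edgeR adjusted p = 0.0341), the transporter Slco1a1 at 1.78 (0.0456), the oxysterol hydroxylase Cyp7b1 at 1.71 (0.0425) and Nudt7, a peroxisomal CoA hydrolase, at 1.504 (0.0348). Mup20, named after its values were seen, was the 1 of the 14 below 0, at -0.63 (0.176), and was lower at an unadjusted p under 0.05. Mouse 314, the lowest for Cyp4a12a and Cyp4a12b, was also the lowest for Hsd3b5 (0.185 CPM), Slco1a1 (21.9 CPM) and Cyp7b1 (34.8 CPM). Of 5 tested female-biased genes (median 0.32), Cyp2a4 was called lower (log2 fold change -2.38, edgeR adjusted p = 0.0375) and 0 higher. In growth hormone signalling 1 of 11 was called in each direction (median 0.43), Igfals at 0.75 (0.0374) and Stat5a at -0.50 (0.0341). Of 8 tested genes of leukotriene and eicosanoid handling, 1 was called higher and 0 lower (median -0.20), Ephx2, which hydrolyses epoxides of fatty acids, at 0.82 (0.0465). Of 14 clock genes 3 were called higher and 0 lower by edgeR (median 0.53), 6 higher and 3 lower by DESeq2, and 5 and 1 by limma-voom. The 3 that edgeR called higher were Hlf at 0.88 (0.0278), Tef at 1.17 (0.0429) and Cry2 at 0.84 (0.0495). None of the genes named here and none of the markers named below passed in the fits without mouse 311, 314 or 319.

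Markers of liver zones and cell types were read beside the members, and their part in the members' values was not tested either. Of 10 hepatocyte markers (median 0.42) 1 was called higher, Cps1 at 0.96 (edgeR adjusted p = 0.0279), and 0 lower, with summed levels of 50288 to 60836 CPM in AAV8-GFP and 60640.1 to 83511 CPM in AAV8-AGXT mice. Of 10 pericentral markers (median 0.77), 3 were called higher and 0 lower (Cyp2e1 at 1.15, Oat at 1.48 and Slc1a2 at 1.37), with sums of 7604 to 9563 and 15473 to 20501 CPM that did not overlap. Of 10 periportal markers (median 0.40) Arg1 was called higher at 0.62 (edgeR adjusted p = 0.0490) and 0 were lower, with sums of 3683 to 6407 and 5779.7 to 7400.4 CPM. Macrophage markers were at 679.7 to 1168 and 291 to 998 CPM with 0 of 12 called by edgeR (median -0.57), stellate and fibroblast markers at 560.2 to 982 and 258 to 643 CPM with Acta2 called lower (-0.99) of 10 (median -0.59), and cholangiocyte markers at 256 to 721 and 107 to 306 CPM with 0 of 8 called (median -1.24). At an unadjusted p under 0.05, 3 macrophage markers were lower and 1 higher, and 7 cholangiocyte and 6 stellate or fibroblast markers were lower. DESeq2 gave 3 and 1 for macrophages, 5 lower for cholangiocytes and 2 lower for stellate cells and fibroblasts, and limma-voom 0 in each. Of 8 endothelial markers 0 were called by edgeR, DESeq2 or limma-voom and 0 had an unadjusted p under 0.05, with sums of 146 to 225 and 151 to 286 CPM (median 0.23). Summed levels mostly follow the most abundant genes of a list. Cyp2e1 alone had means of 5450 and 12061 CPM in AAV8-GFP and AAV8-AGXT mice, and 1 cholangiocyte marker had 484 and 157 CPM. Of the markers in these lists, Ly6g alone did not pass the filter on low counts.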

How the data were processed

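RNA from 8 livers, 1 library per mouse, was sequenced by the authors as stranded paired-end mRNA libraries with 76-base reads, of which the first 9 cycles were trimmed. Per the labels and the study's methods, the authors checked reads with FastQC 0.11.8, trimmed them with Trimmomatic 0.35, mapped them to GRCm38 with HISAT2 2.1.0.13 and counted them with HTSeq. The deposited values are raw counts per Ensembl gene, neither normalized nor filtered. The strand option and overlap mode are not given in the sources used here, so overlapping genes such as Cyp4v3 and Gm45753 are uncertain. Rows that tally uncounted reads were left out of library sizes, and counts on genes were 56.3% to 69.1% of all tallies. Of 52636 genes, 52489 matched GENCODE M21, which is on the same build.

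Mice were grouped by the treatment in the sample titles. Differences were tested in R 4.3.3 with edgeR 4.0.16 (filterByExpr, TMM, quasi-likelihood, treatment only), with p adjusted by Benjamini-Hochberg across all 15248 tested genes and called under 0.05. Fold changes carry edgeR's prior count of 0.125, and log2 CPM a prior count of 2. Alternatives were DESeq2 1.42.0, limma-voom (limma 3.58.1), robust estimation, DESeq2 size factors, and upper-quartile and total-count scaling. Others were no filter, at least 10 counts in every mouse, and each mouse left out in turn. The authors also used DESeq2, in another version. Scripts were tested on simulated data. For the members, with at least 335 counts per mouse, spread between mice (common coefficient of variation 23.3%) rather than counting error limits precision at these depths. Counting error weighs more in genes with few counts, such as Cyp4f18 with 13 in mouse 308. Sequences came from GENCODE M21 transcripts and were compared with Biopython 1.88 under Python 3.11.15.

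The members and gene lists were chosen with earlier results of these data known. Named were all members, the other Cyp4 genes, genes of the lists on omega-oxidation, electron supply, peroxisomes and PPARα, up to 4 called genes of every other list, Agxt, and for each member the 3 genes with the highest within-group correlation. Alb and Ly6g were added after their values were seen. Some genes of these lists are not reported here by name.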

Additional observations from a re-analysis of the deposited data

Results flagged for a closer look

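In 5 of 40 groups of 4 values checked, the highest or lowest mouse lay further from the others than Dixon's criterion for 4 values (0.829 of the range) allows, where chance gives about 1 in 20 groups. Mouse 303 stood out among AAV8-GFP mice for Cyp4a10, at 1240.5 CPM against 555 to 633 CPM, and for Cyp4a32, at 47.1 CPM against 15.5 to 20.2 CPM. Mouse 308 stood out among AAV8-AGXT mice for Cyp4a10, at 3589 CPM against 1782 to 2078 CPM, and on the low side for Cyp4f18, at 0.897 CPM against 2.64 to 2.88 CPM. Mouse 319 stood out for the log2 ratio of Cyp4a12a to Cyp4a12b, at 1.34 against 0.83 to 0.92 in the other AAV8-AGXT mice. Without mice 303 and 308, a choice made after the data were seen, 4 members were called higher and 0 lower by edgeR (Cyp4a10, Cyp4a14, Cyp4a31 and Cyp4a32), while 116 genes were called in all.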

How the results depend on the processing

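No paired analysis was possible because the groups share no replicate numbers. The calls of Cyp4a10 and Cyp4a14 held under the 8 alternatives that kept all mice, and other counts moved. DESeq2 called 2078 genes and 6 members, limma-voom 4 members, the fit without a filter 4 members, and total counts without a composition factor 1001 genes, of which 144 were higher and 857 lower against 374 and 290 as reported. Leaving out 1 mouse gave 2 to 643 called genes and 0 to 4 called members, and without mice 303 and 308 together 116 and 4; fewer mice were tested in these fits. Differences of the log2 ratios with 1 mouse left out were 0.50 to 0.71 for Cyp4a14 to Cyp4a10, 0.38 to 1.05 for Cyp4a10 to Cyp4a12a, 1.18 to 1.84 for Cyp4a10 to Cyp4f14, 0.92 to 1.41 for Cyp4a10 to Cyp4v3 and 0.055 to 0.24 for Cyp4a12a to Cyp4a12b. Exact permutation p then ranged from 0.0286 to 0.0571 for Cyp4a14 to Cyp4a10 and for Cyp4a10 to Cyp4v3, and from 0.0286 to 0.143 for Cyp4a10 to Cyp4f14.

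With total counts the log2 fold change turned to -0.053 for Cyp4f13, -0.036 for Cyp4f14, -0.011 for Cyp4f17, -0.064 for Adh4, -0.057 for Cyb5a, -0.018 for Cyb5b, -0.043 for Crot, -0.048 for Rxrb, -0.15 for Rxrg, -0.0031 for Ncor1, -0.21 for Ncoa1 and -0.0047 for Cidec, beside a shift of the median over all genes to -0.22. Ncoa1 was also at -0.046 with upper-quartile scaling, -0.0024 without a filter, -0.020 with at least 10 counts in every mouse, -0.033 without mouse 314 and -0.10 without mouse 309. With 1 mouse left out, Rxrg ranged from -0.019 (without mouse 314; -0.018 without mouse 308) to 0.26, Ncoa1 up to 0.075, Acot2 from -0.14 (without mouse 308) to 0.73, and Pdk4 from -0.67 to 0.42 (without mouse 303; 0.0020 without mouse 319), with 0.61 for Pdk4 without mice 303 and 308. None of these genes was called in any of those fits, and the cause was not tested.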
